A study of Rhamphochromis sp. 'chilingali' and Astatotilapia calliptera with 50 samples.

Results

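The expression of erbb3b, sema3fa and aldh1l1 was followed across somitogenesis in whole embryos of 2 cichlid fishes, Astatotilapia calliptera "Mbaka" (here AC) and a species of Rhamphochromis, "chilingali" (here RC). The genes were chosen by their identifiers, ENSACLG00000006083 for erbb3b, ENSACLG00000013438 for sema3fa and ENSACLG00000026137 for aldh1l1, and all 3 were found among the 28001 entries of the gene table and passed the filter on low values. The table gives no positions, and genome coordinates were not analysed here. Single wild-type embryos of tank-reared fish were dissected from the yolk, and RNA was sequenced from both species at 4, 10, 15, 18, 20, 22, 26 and 30 somites (ss) and from RC also at 37ss. Each group held 3 embryos, but that of RC at 4ss only 2, which makes 24 AC and 26 RC embryos. All were reared in water with methylene blue and given no experimental treatment. The AC embryos set against the RC embryos of 26ss carry 27 somites in their labels. Each species came from 1 egg clutch, so species and clutch cannot be told apart, and the p-values measure the spread between embryos of 1 clutch.

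The neural crest is a population of cells that leaves the dorsal neural tube and migrates to form pigment cells, peripheral neurons and glia, and much of the facial skeleton. ErbB3 is a receptor for neuregulins that signals together with ErbB2, and zebrafish erbb3b is needed for neural crest migration, for Schwann cell migration along axons and for the stem cells of adult pigment. Sema3f proteins are secreted guidance cues that repel migrating crest cells and axons bearing neuropilin-2 and plexin receptors. Aldh1l1 is the cytosolic 10-formyltetrahydrofolate dehydrogenase, an enzyme of folate one-carbon metabolism known as a marker of astrocytes in the mammalian brain, and it is also expressed in liver. In a whole embryo, fewer cells of a type and less RNA per cell cannot be told apart.

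Between 17619762 and 27454591 reads per embryo were assigned to genes. No pair of embryos of a group agreed within sampling noise, so all were counted as separate samples. When whole transcriptomes were correlated within a species, 36 of 50 embryos were most like their own stage, but none of the 3 RC embryos of 10ss and none of the 3 RC embryos of 15ss were. RC replicate 1 of 10ss was most like the RC embryos of 18ss, and RC replicate 3 of 15ss was most like those of 10ss. Where leaving out RC replicate 1 or 2 of 10ss or RC replicate 3 of 15ss changed a call or a direction between species at these stages, the value without that embryo is given below. The label of whole embryo holds no defining cell type that could be tested. The neural crest markers with an identifier (sox10, foxd3, tfap2a, tfap2c and pax3a) were all detected, but sox10 in no AC embryo of 4ss.

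The level of erbb3b was close to 0 in AC embryos at 4ss and rose to its full level by 10ss in both species. At 4ss the normalized read counts were 2.83, 5.19 and 0 in the 3 AC embryos and 24.4 and 38.8 in the 2 RC embryos. The species did not overlap, as for 46.9% of all genes at this stage. The counts of erbb3b rest on 7 reads in all AC embryos and 66 in the RC embryos. The ratio of the scaled reads, RC over AC, was 12.2, with a 95% exact interval of 5.62 to 31.6 that covers counting error only. On the log2(normalized count + 1) scale the difference was 3.47 ± 0.38 (SE, adjusted p = 7.96e-09). At this stage 25.4% of all 21123 genes tested were called, 15.7% with higher values in RC. A call here means a fold change above 1.5 together with an adjusted p below 0.05. As the AC values are this low, the size of the log2 difference followed the pseudocount and was 4.74 with 0.1 and 1.71 with 10. When the embryos of 4ss were fitted without the other stages, the adjusted p was 0.104 in limma and 0.0229 in DESeq2.

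From 10ss on, erbb3b was present in all embryos at 254 or more normalized counts. At 10ss the AC embryos held 353, 730.1 and 533 and the RC embryos 609, 749 and 608 normalized counts, so that the species overlapped. Between 4ss and 10ss the log2 level rose by 7.49 ± 0.33 in AC (adjusted p = 5.24e-20) and by 4.36 ± 0.37 in RC (adjusted p = 3.16e-11). This step was called in 29.4% of all genes in AC and in 14.2% in RC, of 21212 tested in each. As the AC embryos of 4ss held 7 reads in all, the size of the rise in AC depends on the pseudocount. No later step between neighbouring stages was called for erbb3b, neither the other 6 in AC nor the other 7 in RC, and the later log2 steps lay between -0.42 and 0.18. Calls in these later steps were rare among all genes, with 0 to 8.28% per step in AC and 0 to 1.17% in RC.

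The highest group mean of erbb3b was that of RC at 15ss, with 658, 795 and 772 normalized counts. The AC embryos of that stage held 454, 391 and 419. The species did not overlap there, as for 41.7% of all genes. The log2 difference of 0.81 ± 0.34 missed the threshold (adjusted p = 0.0615) in the fit across all stages. It passed in 6 of the other analyses that kept all embryos, among them DESeq2 (log2 difference 0.82, adjusted p = 0.000829) and edgeR (0.85, adjusted p = 0.00449). Without the embryos of 4ss the same log2 difference was called in limma (adjusted p = 0.0023), since all groups share 1 estimate of the spread. At the other 6 stages from 10ss the log2 difference lay between 0.31 and 0.55 and was not called. Over the 9 fits that left out a replicate or a single embryo, the difference of erbb3b ran from 0.063 to 0.59 at 10ss and from 0.76 to 0.90 at 15ss. At 15ss it was called without AC replicate 3 (adjusted p = 0.0186).

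The mean log2 difference of erbb3b was above 0 at all 8 stages, as for 11.8% of all genes, and the embryos of the species did not overlap at 4 stages, as for 38.6% of all genes at 4 or more. Averaged over the 8 stages, RC was higher by 0.83 ± 0.12 on the log2 scale (adjusted p = 4.65e-07), a call made for 23.9% of genes and for 10.9% in this direction. Without the embryos of 4ss the average fell to 0.45 (adjusted p = 8.62e-06), under the fold threshold. The species difference varied with stage (adjusted p = 0.000332, called for 24.6% of genes), and it no longer did so without the embryos of 4ss (adjusted p = 0.681) or without RC replicate 3 (adjusted p = 0.0777). Without RC replicate 3, RC at 4ss was left with 1 embryo.

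Ordered by mean level, the groups of erbb3b ran from RC at 15ss (742 ± 73.2 normalized counts, SD, n = 3) over RC at 10ss (655 ± 81.1) and RC at 20ss (611 ± 96.4) down to AC at 26ss (352 ± 43.8), followed by RC (31.6 ± 10.2, n = 2) and AC (2.67 ± 2.60) at 4ss. Neighbours in this order overlapped in 14 of 16 pairs, so most of the order lay within the spread between embryos. At 37ss the RC embryos held 512, 352 and 387 normalized counts, which overlapped the 404 to 446 of RC at 30ss.

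**Figure D1:**
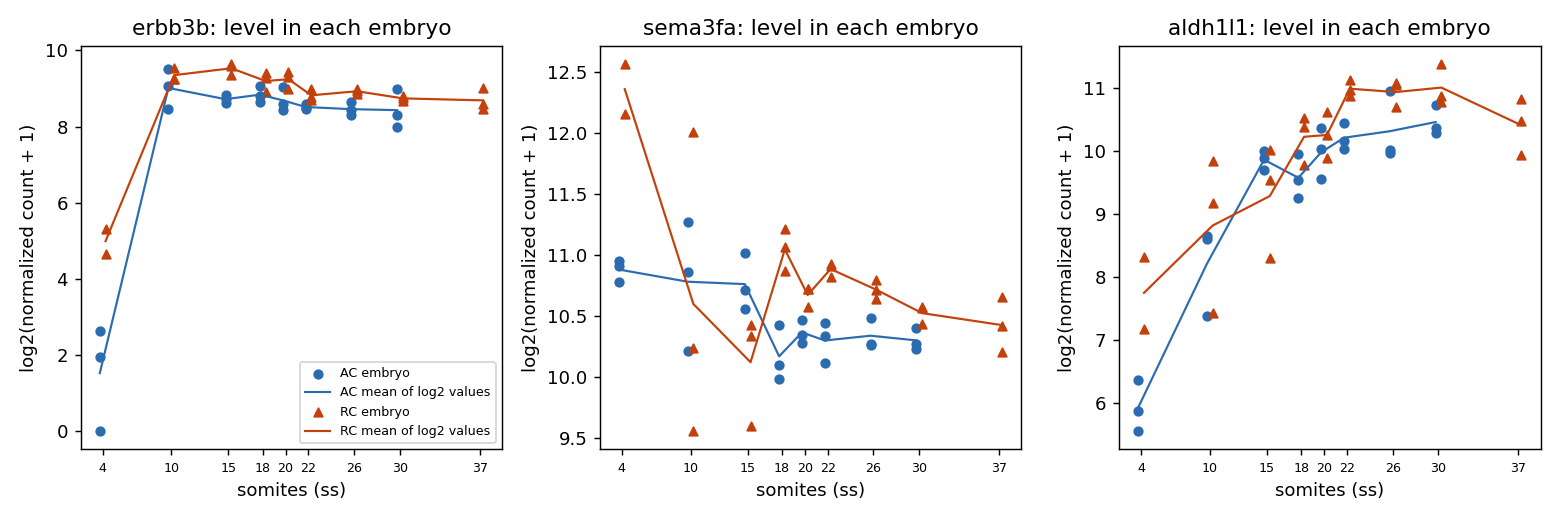
Level of erbb3b, sema3fa and aldh1l1 in each of the 50 embryos on the log2(normalized count + 1) scale against the number of somites, with lines through the group means of the log2 values (AC circles, RC triangles, shifted slightly to the sides). At 4ss erbb3b lay at 0 to 5.19 normalized counts in AC and at 24.4 and 38.8 in RC, and sema3fa was highest in the RC embryos of this stage. The vertical axes differ between panels and do not start at 0 for sema3fa and aldh1l1.

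In RC the course of sema3fa was the opposite, with its highest level at the start, and this start was higher than in AC. At 4ss the AC embryos held 1758, 1981 and 1926 normalized counts and the RC embryos 4562 and 6046. The species did not overlap, as for 46.9% of all genes at 4ss, and the log2 difference was 1.48 ± 0.34 (adjusted p = 0.000866). By 10ss the level in RC had dropped by 1.76 ± 0.33 on the log2 scale (adjusted p = 0.000169), a step called downwards in 4.01% of all genes, while the change in AC was -0.10 ± 0.30 (adjusted p = 0.829). Over the whole span from 4ss to 30ss sema3fa fell by 1.83 ± 0.33 in RC (adjusted p = 1.80e-05), a step called in 39.3% of all genes and downwards in 11.1%. In AC the change over this span was -0.58 ± 0.30 (adjusted p = 0.0833), and 55.5% of all genes were called there.

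The RC embryos of 10ss were the most uneven group for sema3fa, with 4110 normalized counts in replicate 1, 754 in replicate 2 and 1205 in replicate 3. The AC embryos of 10ss held 2471, 1190 and 1855, within the range of RC. The log2 difference of -0.18 ± 0.30 at this stage was not called, and it became -0.88 and was called (adjusted p = 0.00259) without RC replicate 1 of 10ss alone. Without RC replicate 2 of 10ss alone it was 0.34 (adjusted p = 0.494). No direction of sema3fa can thus be given at 10ss.

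At 15ss sema3fa was lower in all RC embryos (1297, 1375 and 776 normalized counts) than in the AC embryos (1505, 1684 and 2066). The log2 difference was -0.64 ± 0.30 and was not called (adjusted p = 0.102), although it was without RC replicate 1 (adjusted p = 0.00855) or replicate 2 (adjusted p = 0.0448) of 10ss. Whether the species difference changed between 15ss and 18ss was not tested on its own. At 18ss all RC embryos lay above the AC embryos. The RC embryos held 2368, 2139 and 1868 normalized counts and the AC embryos 1098, 1015 and 1374, a called log2 difference of 0.88 ± 0.30 (adjusted p = 0.0256) at a stage where 20.9% of genes were called, 10.3% in this direction. The call was lost without AC replicate 1 at all stages (0.84, adjusted p = 0.0797) and without AC replicate 2 (0.78, adjusted p = 0.134).

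From 20ss to 30ss the RC embryos stayed above all AC embryos of their stage without a call in the fit across all stages, at log2 differences between 0.22 and 0.58. The largest, at 22ss (adjusted p = 0.218), lay at the edge of the fold threshold. DESeq2 for 22ss alone called it, only just above that threshold (adjusted p = 2.26e-05). At 22ss the AC embryos lay between 1111 and 1396 and the RC embryos between 1811 and 1941 normalized counts, and at 30ss between 1200 and 1352 and between 1382 and 1522. In all, the species did not overlap at 7 of 8 stages, as for 9.36% of genes at 7 or more. The direction was not shared by these stages, since RC was higher at 6 of them and lower at 15ss. The average over the 8 stages was 0.38 ± 0.11 (adjusted p = 0.00341), below the fold threshold. It was 0.64 and called without the embryos of 10ss and 15ss (adjusted p = 3.44e-12), and 0.22 without those of 4ss (adjusted p = 0.109). The species difference varied with stage (adjusted p = 0.0177), which was lost without the embryos of 4ss (adjusted p = 0.147) and in 4 of 6 fits that left out 1 replicate of a species. Ordered by mean level, sema3fa ran from RC at 4ss (5304 ± 1049.7 normalized counts, SD, n = 2) over RC at 18ss (2125 ± 250.3, n = 3) and RC at 10ss (2023 ± 1821) down to AC at 18ss (1162 ± 188) and RC at 15ss (1149 ± 325), and neighbours overlapped in 14 of 16 pairs.

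The level of aldh1l1 rose over somitogenesis in both species. The AC embryos of 4ss held 46.2, 81.8 and 57.7 and the RC embryos 144 and 318 normalized counts. The RC values were thus higher, by 1.81 ± 0.47 on the log2 scale (adjusted p = 0.00267), without overlap (46.9% of all genes in either direction). The call was lost without RC replicate 3, which left 1 RC embryo at 4ss (1.24). It was also lost in limma when 4ss was fitted without the other stages (adjusted p = 0.105), but DESeq2 for 4ss alone kept it. Up to 30ss the level rose by 4.52 ± 0.41 in AC (adjusted p = 5.32e-12) and by 3.25 ± 0.46 in RC (adjusted p = 2.90e-07), upward calls made for 36.7% and 28.2% of all genes.

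In AC the rise fell on the first steps, with 399, 165 and 388 normalized counts at 10ss and 830.4, 1017 and 941 at 15ss. The log2 step was 2.27 ± 0.41 from 4ss to 10ss (adjusted p = 2.61e-05) and 1.65 ± 0.41 from 10ss to 15ss (adjusted p = 0.00654), the latter called for 8.28% of genes. In RC no step between neighbouring stages was called, and the embryos of 10ss (915, 172 and 575) and 15ss (1027, 743 and 314) overlapped broadly. Of all genes, 14.2% were called in RC from 4ss to 10ss and at most 1.17% in any later RC step. From 15ss to 18ss, where aldh1l1 changed by 0.94 ± 0.41, no gene was called. The missing calls thus do not set the course of aldh1l1 in RC apart from that in AC. The largest RC levels came later, with 1991, 1864 and 2226 normalized counts at 22ss and 1737, 1866 and 2642 at 30ss. At 37ss they were 1796, 975 and 1413, and the log2 step of -0.60 ± 0.41 from 30ss was not called (adjusted p = 0.915).

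Between species, aldh1l1 was called at 4ss and at no other stage in the fit across all stages with all embryos. At 10ss the log2 difference was 0.61 ± 0.42 and was not called (adjusted p = 0.339), but it was 1.30 and called (adjusted p = 0.0216) without RC replicate 2 of 10ss alone, the embryo with 172 normalized counts, and 0.093 without RC replicate 1 of 10ss alone. At 22ss, where 38.9% of all genes did not overlap, all RC embryos lay above the AC embryos (1382, 1141 and 1041). The log2 difference was 0.78 ± 0.42 (adjusted p = 0.240). It was called when 22ss was fitted without the other stages, in limma (adjusted p = 0.00697) and in DESeq2 (adjusted p = 5.58e-07). DESeq2 for 18ss alone also gave a call (0.66, adjusted p = 0.0471). At 15ss the difference was -0.58 ± 0.42 (adjusted p = 0.302), and the species overlapped. Without RC replicate 3 of 15ss it was -0.084. RC was higher on average at 7 of 8 stages, as for 22% of genes at 7 or more, and did not overlap AC at 3 (57.6% of genes at 3 or more). The average over the 8 stages was 0.59 ± 0.15 (adjusted p = 0.0011), a fold of 1.504 that only just passed the threshold of 1.5. It lay under the threshold without the embryos of 4ss (0.41, adjusted p = 0.0234), without RC 10ss replicate 1 (0.52), without AC replicate 2 (0.58) or AC replicate 3 (0.57) and without RC replicate 3 (0.49). The variation of the species difference with stage was not called (adjusted p = 0.133), but it was without RC replicate 1 (adjusted p = 0.0379) and without RC replicate 2 of 10ss alone (adjusted p = 0.0278). The highest mean levels were those of RC at 30ss (2082 ± 489.7 normalized counts, SD, n = 3), 22ss (2027 ± 184) and 26ss (1960.5 ± 273), the lowest those of RC (231 ± 123, n = 2) and AC (61.9 ± 18.2, n = 3) at 4ss, and 15 of 16 neighbours in the order overlapped.

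Calls between species at the same number of somites were therefore 1 of 8 stages for erbb3b, 2 of 8 for sema3fa and 1 of 8 for aldh1l1. These counts are of the fit across all stages, and all calls were of higher levels in RC. Of all genes, 54.3% were called at 1 or more of the 8 stages and 28.6% were called higher in RC at 1 or more. At 2 or more stages these shares were 26.2% and 11.9%. All 3 genes were called at 4ss, the stage with the smallest group and the largest share of calls (25.4% of all genes, 15.7% higher in RC). The median log2 difference of all genes was 0.017 at this stage. RC reads, like AC reads, were aligned to an AC genome, and the part of sequence differences in these values was not tested.

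**Figure D2:**
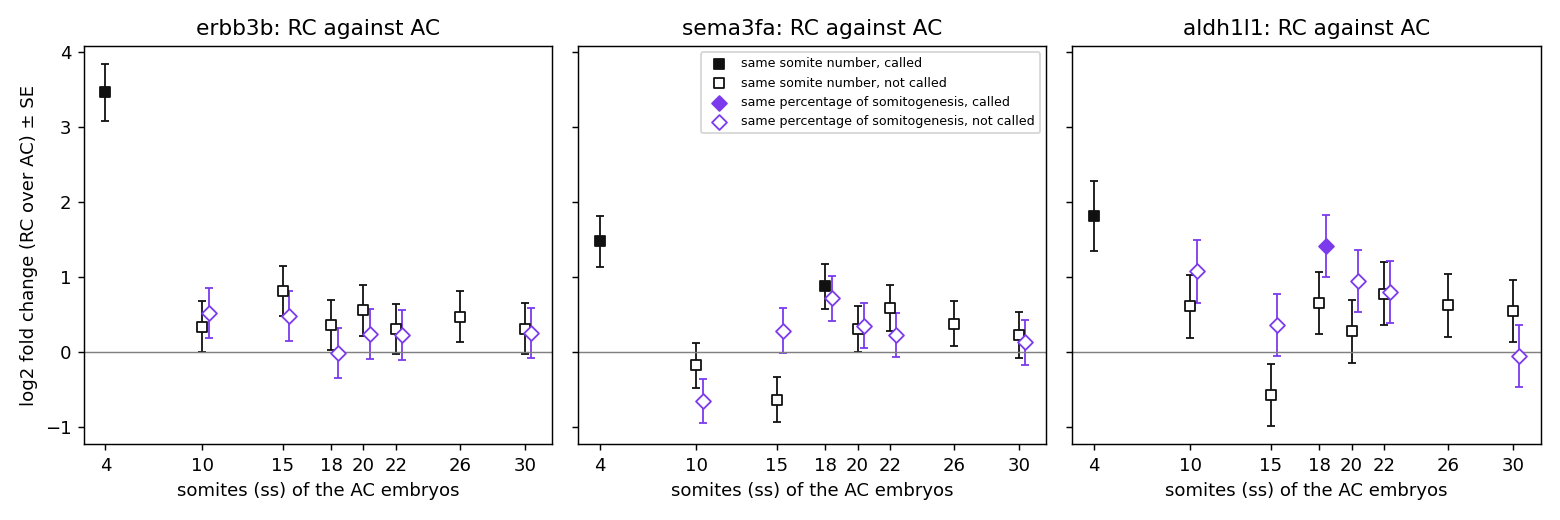
Log2 fold change of RC over AC ± SE for the 3 genes at the same number of somites (squares, 8 stages) and at the same percentage of somitogenesis (diamonds, 6 pairs, placed at the AC stage). Filled symbols were called. The called differences were 3.47 for erbb3b at 4ss, 1.48 and 0.88 for sema3fa at 4ss and 18ss, 1.81 for aldh1l1 at 4ss and 1.41 for aldh1l1 between AC at 18ss and RC at 22ss.

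RC embryos form more somites in all than AC embryos, and the study therefore also paired stages by the percentage of somitogenesis completed, which sets the AC embryos of 10, 15, 18, 20, 22 and 30ss against the RC embryos of 15, 18, 22, 26, 30 and 37ss. The early stage of 4ss has no partner in this scheme. No difference of erbb3b was called in the 6 pairs, and its log2 differences ran from -0.02 to 0.52. For sema3fa no pair was called either, with -0.66 ± 0.30 between AC at 10ss and RC at 15ss (adjusted p = 0.103) and 0.71 ± 0.30 between AC at 18ss and RC at 22ss (adjusted p = 0.0688). Both were called without RC replicate 1 or without replicate 2 of 10ss, although neither pair holds those embryos and their log2 differences were the same, since all groups share 1 estimate of the spread (adjusted p = 0.00912 and 0.00468 without replicate 1, and 0.045 and 0.0272 without replicate 2).

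For aldh1l1, 1 of 6 pairs was called. The AC embryos of 18ss held 738, 605 and 982 normalized counts and the RC embryos of 22ss 1991, 1864 and 2226, without overlap and with a log2 difference of 1.41 ± 0.41 (adjusted p = 0.0103). In this pair 17.1% of all genes were called, 10.6% with higher values in RC. The call was lost without AC replicate 2 (1.25, adjusted p = 0.0703). The pair of AC at 10ss and RC at 15ss gave 1.07 ± 0.41 (adjusted p = 0.0547) and was called in DESeq2 (1.13, adjusted p = 0.0196) and edgeR (1.15, adjusted p = 0.0304). Without RC replicate 3 of 15ss alone it was 1.56 and called (adjusted p = 0.00832), and without RC replicate 1 or 2 of 10ss, which this pair does not hold, the unchanged difference was called (adjusted p = 0.0359 and 0.0216). Higher values in RC were called in 1 or more pairs for 21.9% of all genes. At the end of the series, AC at 30ss (1694, 1239 and 1310.1) and RC at 37ss (1796, 975 and 1413) overlapped, with a difference of -0.05 ± 0.41. The pairs without overlap were 2 of 6 for erbb3b and for sema3fa and 3 of 6 for aldh1l1, against 61.3% of all genes with 2 or more and 37.6% with 3 or more.

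Embryos of the same group did not deviate alike in the 3 genes. The deviations of sema3fa and aldh1l1 from their group means went together, with Pearson's r of 0.77 over the 50 embryos, and 36 of 50 embryos lay on the same side of the mean for both genes. Those of erbb3b went with neither (r of -0.16 with sema3fa and -0.17 with aldh1l1). The largest deviations of erbb3b, 1.11 and -1.52, lay in AC embryos of 4ss, a group with 7 reads of this gene in all. The correlations of erbb3b without this group were not computed. The pair of sema3fa and aldh1l1 shared its extreme embryos. RC replicate 1 of 10ss lay 1.40 above its group mean for sema3fa and 1.02 above it for aldh1l1 on the log2 scale, and replicate 2 of the same group lay at -1.04 and -1.38. AC replicate 2 of 10ss lay at -0.56 and -0.83, and RC replicate 3 of 15ss at -0.52 and -0.98. Without all embryos of 10ss and 15ss, r was 0.66 over 38 embryos.

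This likeness was not particular to the pair. Of 21211 other genes, 402 had a higher correlation of deviations with sema3fa than aldh1l1 had, and 536 had a higher correlation with aldh1l1 than sema3fa had. The gene with a known symbol whose deviations were most like those of sema3fa was dlx1a (r = 0.94), a homeobox factor, and no other gene was higher. For aldh1l1 it was dhrs9 (r = 0.86), with 65 genes higher, and for erbb3b it was igsf11 (r = 0.69), with 13 genes higher. These points share libraries and the scaling of each embryo, and the values are a description of these 50 libraries. The value of erbb3b includes the AC embryos of 4ss, with 7 reads of it in all.

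**Figure D3:**
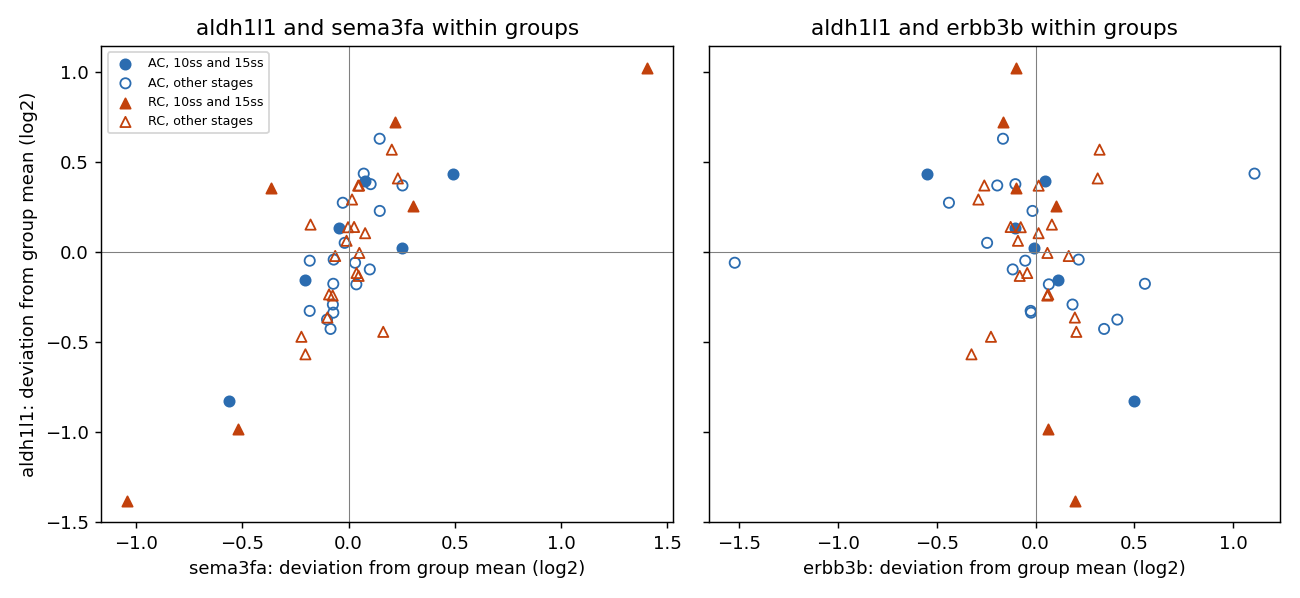
Deviation of each embryo from its group mean (log2 scale) for aldh1l1 against sema3fa (left) and against erbb3b (right), with AC as circles, RC as triangles and the embryos of 10ss and 15ss filled. The points of aldh1l1 and sema3fa follow a rising line (r = 0.77) that ends in RC replicates 1 and 2 of 10ss, and those of aldh1l1 and erbb3b do not (r = -0.17).

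Across all 50 embryos the gene with the course most like erbb3b was sox10 (ENSACLG00000016156), a transcription factor of the neural crest and its glial and pigment lineages, named so in the tables of the study. The correlation of log2(normalized count + 1) was 0.98 (Spearman's rho 0.81), and none of 21211 genes was higher. The 5 embryos of 4ss stretch this correlation, and without them r was 0.80 over 45 embryos, where the rank of sox10 was not computed. The next genes with a symbol were anxa6, nr5a2, disc1 and sparc, with r from 0.87 to 0.93. These rested on 4ss, since their r lay between -0.11 and 0.01 without it. In the deviations from group means, sox10 was not among the 5 genes with a symbol most like erbb3b. At 4ss, this sox10 entry had no read in any AC embryo, where 3 reads was taken as the limit that a count of 0 allows. The RC embryos held 13.3 and 68.7 normalized counts. The paper describes paralogs named sox10a and sox10b and saw sox10a in AC embryos at 4ss by in situ hybridization. This entry alone was analysed by name here, so its values do not stand for both paralogs.

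The courses most like sema3fa were those of ovol1a, a zinc finger factor of epithelia (r = 0.81, rho 0.77), and tfap2c, an AP-2 factor of the crest and epidermis (r = 0.77), followed by vgll4l, macc1 and marcksl1b with r from 0.68 to 0.73. Of all genes, 13 were more like sema3fa than ovol1a was. Without 4ss the correlation with ovol1a was still 0.77. The course most like aldh1l1 was that of ednrab (r = 0.96, rho 0.90), an endothelin receptor, with 1 gene higher. Without 4ss this r was 0.94. It was followed by chrna1, a subunit of the muscle acetylcholine receptor, tyrp1b, an enzyme of melanin synthesis, and the matrix genes dcn and tnc, with r from 0.89 to 0.91. Age and species differ between these embryos and are shared by all genes, so these correlations describe a common course.

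**Figure D4:**
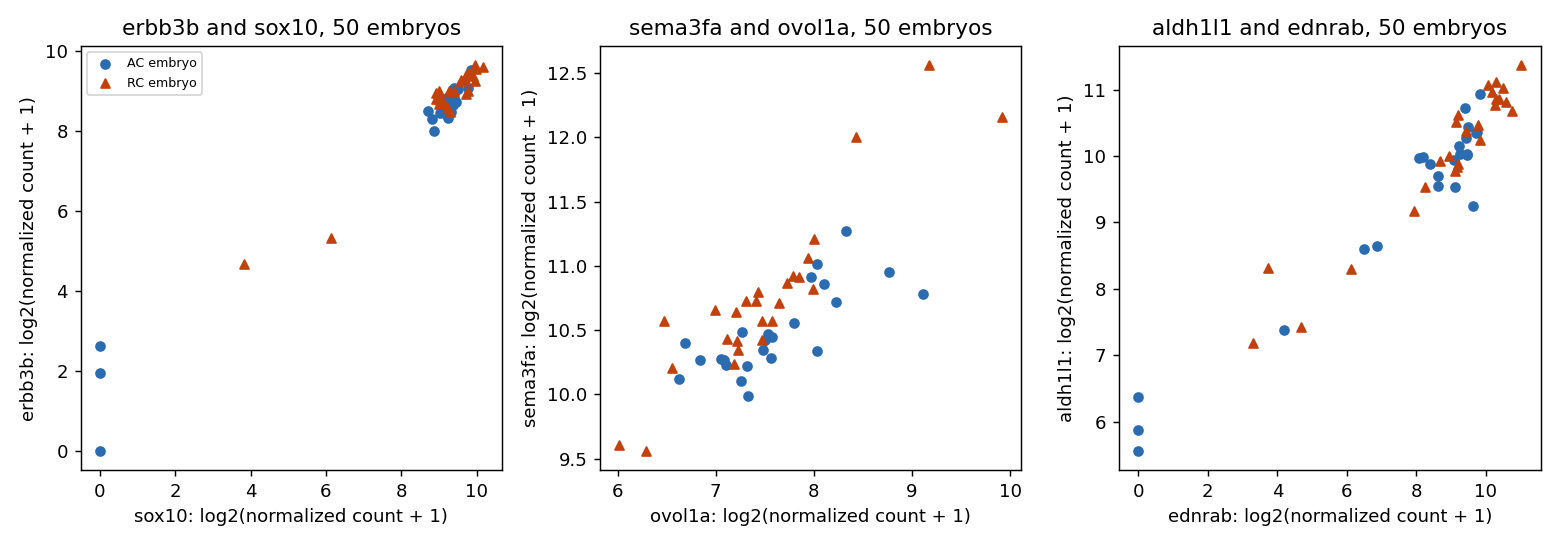
Level of each gene in the 50 embryos against that of the gene with a symbol most like it, both as log2(normalized count + 1), with AC as circles and RC as triangles: erbb3b and sox10 (r = 0.98), sema3fa and ovol1a (r = 0.81), aldh1l1 and ednrab (r = 0.96). The embryos of 4ss stand far below the others for erbb3b and sox10. The axes do not all start at 0.

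Among crest markers, the difference at 4ss was not shared by all. With sox10 (log2 difference 4.98, adjusted p = 4.27e-15), foxd3, an early crest transcription factor, was called higher in RC (2.38, adjusted p = 2.40e-05), with 85.8 to 228 normalized counts in AC and 551 and 1181 in RC. As no AC embryo of 4ss held a read of sox10, the size of its difference depends on the pseudocount. The log2 differences of tfap2a (-0.18), tfap2c (0.12) and pax3a (-0.43) were not called at this stage. Of the 9 crest markers listed, 5 could be matched to an identifier, and their part in the result for erbb3b was not tested. Of the markers of peripheral glia sox10 alone was matched, and none of those of central glia, of liver and yolk layer, of blood or of pronephros and gut was, so the levels of these cells were not analysed here.

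Few partners of the 3 genes could be matched to an identifier through the tables of the study. Of 11 genes of ErbB signalling, nrg1 and nrg2a were matched besides erbb3b. The ligand nrg1 is a neuregulin. Its mean rose from 75.3 ± 12.5 to 656 ± 101 normalized counts in AC and from 81.7 ± 8.31 (n = 2) to 437 ± 52.1 in RC between 4ss and 30ss. It was lower in RC at 18ss (log2 difference -0.91, adjusted p = 0.000194) and at 20ss (-0.69, adjusted p = 0.00508). At 20ss 11.9% of genes were called, 6.71% lower in RC. At 4ss, where erbb3b differed most, the difference of nrg1 was 0.13 (adjusted p = 0.667). The other ligand, nrg2a, was not called at any stage, with log2 differences between -0.30 and 0.40.

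Of 21 class 3 semaphorins and their receptors, nrp2b alone was matched besides sema3fa. This neuropilin-2, a receptor of the Sema3f ligands, was not called at any stage. Its log2 difference was highest at 18ss (0.97 ± 0.41, adjusted p = 0.0705), a stage at which sema3fa was called. It was lowest at 4ss (-0.32), where sema3fa was called as well. Of 24 genes of folate metabolism, gart was matched besides aldh1l1. It encodes an enzyme of purine synthesis that uses 10-formyltetrahydrofolate, the substrate of Aldh1l1. It was higher in RC at 15ss (0.74, adjusted p = 1.31e-05) and 18ss (0.87, adjusted p = 1.08e-06), the former a stage at which the difference of aldh1l1 was negative and not called. At 15ss 23.3% of genes were called, 9.86% higher in RC.

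The 3 genes belong to a set of 15 genes. It holds those that the study's tables place under neural crest migration, and nrg1 and erbb3b were added to them. The study chose these genes on the same embryos, so their calls are no independent evidence of a difference. At 1 or more stages 14 of 15 were called, against 54.3% of all genes. Of these, 8 were called with higher values in RC (28.6% of all genes) and 6 with lower ones, while nrp2b was not called. The share of all genes called lower at 1 or more stages was not computed. At 4ss, where 25.4% of all genes were called, the calls of the set were erbb3b, sema3fa and aldh1l1 upwards, and downwards ret (-1.29, adjusted p = 0.000382), a receptor of glial cell line-derived ligands in enteric crest, and meis3 (-1.22, adjusted p = 1.12e-05), a homeobox factor. The median log2 difference of the set was -0.47 at this stage against 0.017 for all genes. The higher level of the 3 genes in RC at 4ss was thus not a feature of the whole set.

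At later stages other genes of the set were called. At 15ss, 4 were higher and 2 lower, led by the chemokine receptor cxcr4a (1.38, adjusted p = 6.18e-05) and foxc1a, a forkhead factor of mesenchyme (1.18, adjusted p = 0.000339), with mmp17b (0.98) and pdgfrb (0.64) also higher and capzb (-0.90) and arl6ip1 (-0.64) lower. Of all genes, 9.86% were called higher and 13.4% lower at 15ss, and 20.9% were called either way at 18ss. At 18ss lef1, a nuclear effector of Wnt signals, joined sema3fa upwards (1.03, adjusted p = 0.00268), and nrg1 and the spindle protein nusap1 (-0.90, adjusted p = 0.00378) were lower. Later, cxcr4a was called at 26ss and 30ss, lef1 at 22ss and 26ss, and nusap1 again at 26ss and 30ss. Of all genes, 10.8%, 9.93% and 10.4% were called at 22, 26 and 30ss. At 10ss none of the 15 was called, against 14.1% of all genes.

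**Figure D5:**
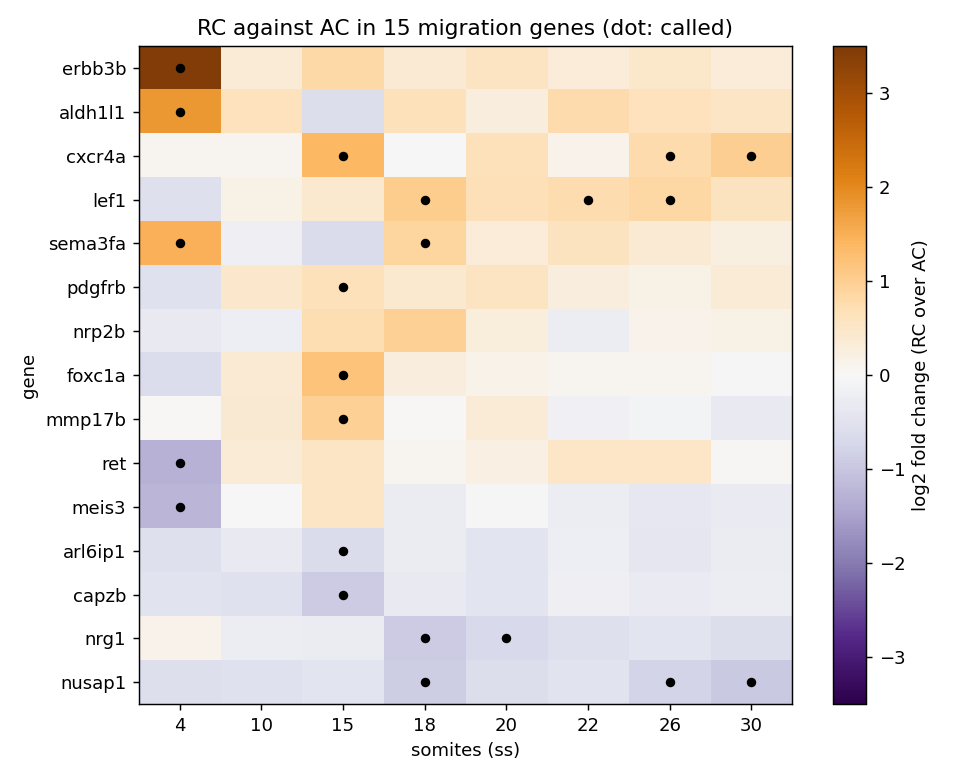
Log2 fold change of RC over AC at 8 stages for the set of 15 genes, ordered by their mean over the stages (orange higher in RC, purple lower, dots called). The set holds the genes that the study's tables place under neural crest migration, with nrg1 and erbb3b added. At 4ss erbb3b (3.47), aldh1l1 (1.81) and sema3fa (1.48) are the 3 called upwards and ret and meis3 the 2 called downwards, and the column of 10ss holds no call.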

How the data were processed

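RNA of 50 single embryos was sequenced as stranded, polyA-selected libraries. Per the paper's methods and the processing notes, the authors trimmed reads with Trim Galore, aligned all of them to the AC assembly fAstCal1.2 with STAR, counted unique reads per gene with HTSeq and scaled them with DESeq2, and the signal values deposited are these normalized counts. All values were whole reads divided by 1 factor per embryo, and these reads were recovered for count tests. The authors' 17 columns of group means, and their tables of lncRNAs and transposable elements, were not used.

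Log2(normalized count + 1) was fitted in limma 3.58.1 (R 4.3.3) with a variance trend. Genes under 10 normalized counts in all but 1 embryo, or in all, were left out. A fit of 47 embryos in 16 groups gave the comparisons at equal somites, their average and an F-test of variation with stage. A fit of 50 embryos in 17 groups gave stage steps and percent-matched pairs. Benjamini-Hochberg adjustment was made per comparison, and a gene was called where the adjusted p was below 0.05 and the log2 fold change exceeded 0.585 in size. Alternatives were DESeq2 1.42.0, edgeR 4.0.16 and those in the closing section. The fits were tested on simulated data. Genes named are the 3 members, list genes called at 1 or more stages, and the 5 named genes most correlated with each member. Also named, after their values were seen, are nrg2a, nrp2b and tfap2a, which were not called, and dlx1a, dhrs9 and igsf11, which deviated most like a member. Symbols came from the study's supplementary tables, which pair 238 identifiers, and genes without one there were not analysed by name. RefSeq names could not be paired with these identifiers. The members and lists were chosen with earlier results of these data known.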

Additional observations from a re-analysis of the deposited data

Results flagged for a closer look

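The species difference of erbb3b differed between stages by the F-test of limma (adjusted p = 0.000332), with a log2 difference of 3.47 at 4ss and between 0.31 and 0.81 at the 7 later stages. The species difference of sema3fa differed between stages by the same test (adjusted p = 0.0177), with log2 differences from -0.64 at 15ss to 1.48 at 4ss.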

How the results depend on the processing

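The alternatives were pseudocounts of 0.1 and 10, no filter, a mean of at least 10 in each species, quantile normalization, DESeq2, edgeR, a replicate block, leaving out each replicate, and for the stages other thresholds, another adjustment and each stage fitted alone. Chosen after seeing the data were fits without the embryos of 4ss, without those of 10ss and 15ss, without RC 10ss replicate 1 or 2 or RC 15ss replicate 3, and DESeq2 for each stage alone. The changes from 4ss to 30ss of all 3 genes kept direction and call in every fit that holds them. For erbb3b, 2 stages in place of 1 were called with a pseudocount of 10, quantile normalization, edgeR, DESeq2 and DESeq2 for each stage alone. Without 4ss its average was 0.45 and the variation with stage had an adjusted p of 0.681. For sema3fa, 1 stage was called at log2 fold changes above 1, the average was 0.64 without 10ss and 15ss, and the adjusted p of variation with stage was 0.147 without 4ss. Its difference at 10ss turned to 0.15 in edgeR, 0.14 in DESeq2 and 0.13 in DESeq2 for that stage alone, none called. For aldh1l1, 3 stages were called with DESeq2 for each stage alone, 2 percent-matched pairs with quantile normalization, edgeR and DESeq2, and the average lost its call with a pseudocount of 10 (0.57), quantile normalization (0.53), the replicate block (0.58) and without 4ss (0.41). The cause of these changes was not tested.

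Leaving out replicates, 1 to 2 stages were called for erbb3b, 1 to 4 for sema3fa and 0 to 2 for aldh1l1, and 0 to 2 percent-matched pairs for sema3fa and for aldh1l1. The adjusted p of variation with stage ran from 4.55e-05 to 0.0777 for erbb3b, from 4.87e-06 to 0.302 for sema3fa and from 0.0278 to 0.797 for aldh1l1, and the average of aldh1l1 from 0.49 to 0.69. Differences that were not called and changed sign were those of sema3fa at 10ss (-0.88 to 0.34), of erbb3b between AC at 18ss and RC at 22ss (-0.11 to 0.092) and of aldh1l1 between AC at 30ss and RC at 37ss (-0.26 to 0.19).

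Replicate numbers were not used to pair the embryos. Of 23 correlations of the deviations of same-numbered embryos, 4 were over 0.1 (from -0.087 to 0.365). These were replicates 1 and 3 of 4ss (0.106 and 0.101) and replicates 1 and 2 of 10ss (0.363 and 0.365). Whether the numbers pair the embryos at these stages was not tested. The replicate block kept direction and call of 59 of 60 results, all but the average of aldh1l1. Depth limits erbb3b at 4ss, where the AC embryos held 7 reads.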
